A study of Homo sapiens with 16 samples.

Results

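LAN-1 is a human neuroblastoma cell line with amplified MYCN, and its 4 DMSO libraries show how its transcriptome differed between day 5 and day 2 of culture with the solvent alone. The members were the libraries labelled LAN-1, DMSO and 5 days (replicates 1 and 2) and LAN-1, DMSO and 2 days (replicates 1 and 2), which are 4 of the 16 libraries of the series. The other 12 libraries are Kelly, a second MYCN-amplified neuroblastoma line, in DMSO, and both lines with 2 uM GSK126, which inhibits EZH2, the methyltransferase of the repressive mark on lysine 27 of histone H3, each for 2 or 5 days in duplicate. The series was designed around EZH2 inhibition, and in it the DMSO libraries are the controls of each day. All the DMSO groups received solvent and no inhibitor. The labels give the line, the treatment, the day and the replicate number. The dose of DMSO, the plating density, the passage, changes of medium and whether duplicates were separate cultures are not given in the sources used here, so the p-values measure only the spread between these libraries. Time in culture and anything else that differed between the day 5 and day 2 harvests cannot be told apart.

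The LAN-1 DMSO libraries held 1455547 and 1220297 counts at day 5 and 1597429 and 1514344 counts at day 2. At these depths, 3 counts, the upper limit at 95% confidence for a listed 0, correspond to between 1.92 and 2.52 CPM (counts per 1e+06 counts, scaled by TMM). This limit covers counting error only. The variance between duplicates was 1.21 times that of counting alone at day 5 and 1.28 times at day 2, so both pairs differed by more than sampling noise. The 10 neuroblastoma markers summed to 4290 and 4300 CPM at day 5 and 4560 and 4390 CPM at day 2. TH and DBH, the enzymes that begin and end noradrenaline synthesis, stayed under 3.5 CPM in all 4 libraries, so the mRNAs of these defining enzymes of the lineage were nearly absent in LAN-1. Markers of Schwann cells, blood cells, epithelium and endothelium summed to under 9 CPM per list in every library, and 10 fibroblast markers summed to 107 and 102 CPM at day 5 and 88.3 and 96.4 CPM at day 2, with FAP and POSTN at 0. MYCN itself stood at 1695 and 1670 CPM at day 5 and 1774 and 1688 CPM at day 2 (log2 fold change -0.04 ± 0.08, adjusted p = 0.967, and log2 0.0107 with a GC offset in the fit). EZH2 stood at 127 and 135 CPM at day 5 and 136 and 149 CPM at day 2 (-0.12 ± 0.12, adjusted p = 0.905).

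Several pathways named in these results have well-known outlines. Bone morphogenetic proteins (BMPs) are secreted ligands whose receptors phosphorylate SMAD factors, which then switch on the ID genes and the inhibitory SMADs; ID proteins block the DNA binding of basic helix-loop-helix factors, and SMAD6 and SMAD7 feed back on the receptors. Neuroblastoma is thought to arise from the sympathetic lineage, which BMPs from the dorsal aorta help to induce. HAND, GATA and T-box factors are part of the transcription factor network of that lineage. When amino acids run short, translation of the transcription factor ATF4 increases and it induces asparagine synthetase, amino acid transporters and aminoacyl-tRNA synthetases. Semaphorin receptors (plexins), netrin receptors (DCC and the UNC5 family) and neurotrophin receptors guide growing axons.

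Of 11863 genes tested, 52 were called (0.438%), meaning that edgeR's quasi-likelihood p, adjusted by Benjamini-Hochberg over all tested genes, was under 0.05. All adjusted p-values below come from that fit unless another is named, and each log2 fold change is day 5 over day 2 ± SE with n = 2 libraries per day. The 52 comprised 38 genes lower at day 5 (0.32%) and 14 higher (0.118%). Of the 11863 genes, 872 had an unadjusted p under 0.05, which stands beside each list's count of such p-values below. The changes were mostly small. The lower genes had a median log2 fold change of -0.68 and 9 of them were beyond 2-fold, whereas the higher genes had a median of 0.60 and 1 was beyond 2-fold. The median over all tested genes was near 0 (-0.00072). The CPM of the days did not overlap for any of the 52, which was also so for 36.8% of all tested genes. The GC content of the called genes had a median of 54% for those lower and 42.3% for those higher, against 47.6% for all. With a GC offset in the fit 78 genes were called, and all 52 were among them. Leaving out 1 library of the comparison left 21 (without day 5 replicate 1), 32 (without day 5 replicate 2), 22 (without day 2 replicate 1) or 27 calls (without day 2 replicate 2), and DESeq2 called 22.

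**Figure D1:**
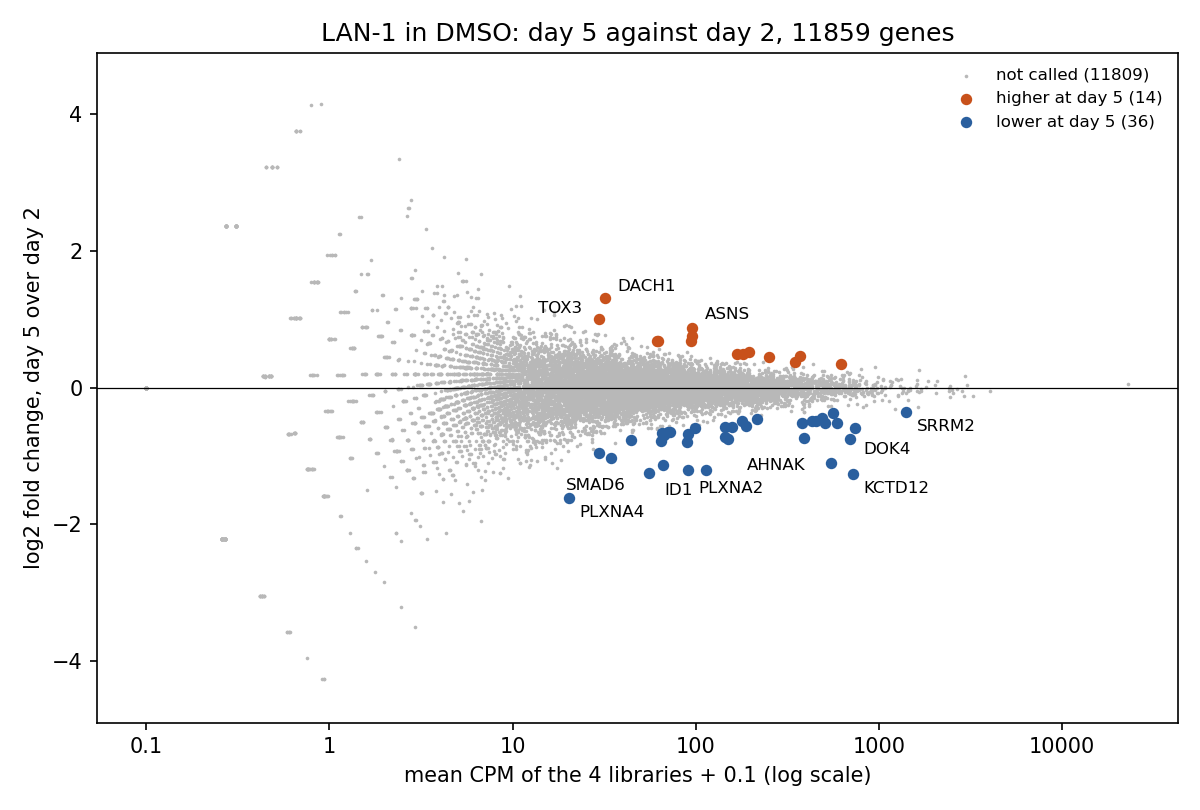
Log2 fold change (day 5 over day 2, vertical axis) against mean CPM (horizontal axis, log scale) of genes tested in the LAN-1 DMSO libraries. Orange points are the 14 genes called higher at day 5, blue points 36 of the 38 called lower and grey points the rest. Most called genes lie within 1 log2 unit of 0 and at levels above 10 CPM.

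The strongest falls by p were in a scaffold gene, a potassium channel domain gene and a BMP target. AHNAK, which encodes a very large scaffold protein under the plasma membrane, stood at 345.4 and 344.5 CPM at day 5 and 784 and 701 CPM at day 2. The day 5 duplicates nearly coincided, both lay below either day 2 value, and the level was 2.15-fold lower (log2 -1.11 ± 0.09, adjusted p = 2.95e-18). KCTD12, an auxiliary subunit of GABA-B receptors, stood at 386 and 459 CPM at day 5 and 1053 and 973 CPM at day 2 and was 2.41-fold lower (-1.27 ± 0.10, adjusted p = 2.88e-17). DOK4, an adaptor downstream of receptor tyrosine kinases that include RET, stood at 468 and 576.5 CPM at day 5 and 957 and 795 CPM at day 2 (-0.75 ± 0.09, adjusted p = 7.48e-09). DSE, the epimerase that makes dermatan sulfate, stood at 541 and 639.5 CPM at day 5 and 902 and 864 CPM at day 2 (-0.58 ± 0.09, adjusted p = 7.88e-07). For these genes the duplicates of a day differed less than the days did, and each call held whichever library was left out, the highest adjusted p being 0.0296 for DSE without day 5 replicate 1. On GRCh37, AHNAK lies at chr11:62201014-62323707 and KCTD12 at chr13:77454310-77460540, both on the minus strand.

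**Figure D2:**
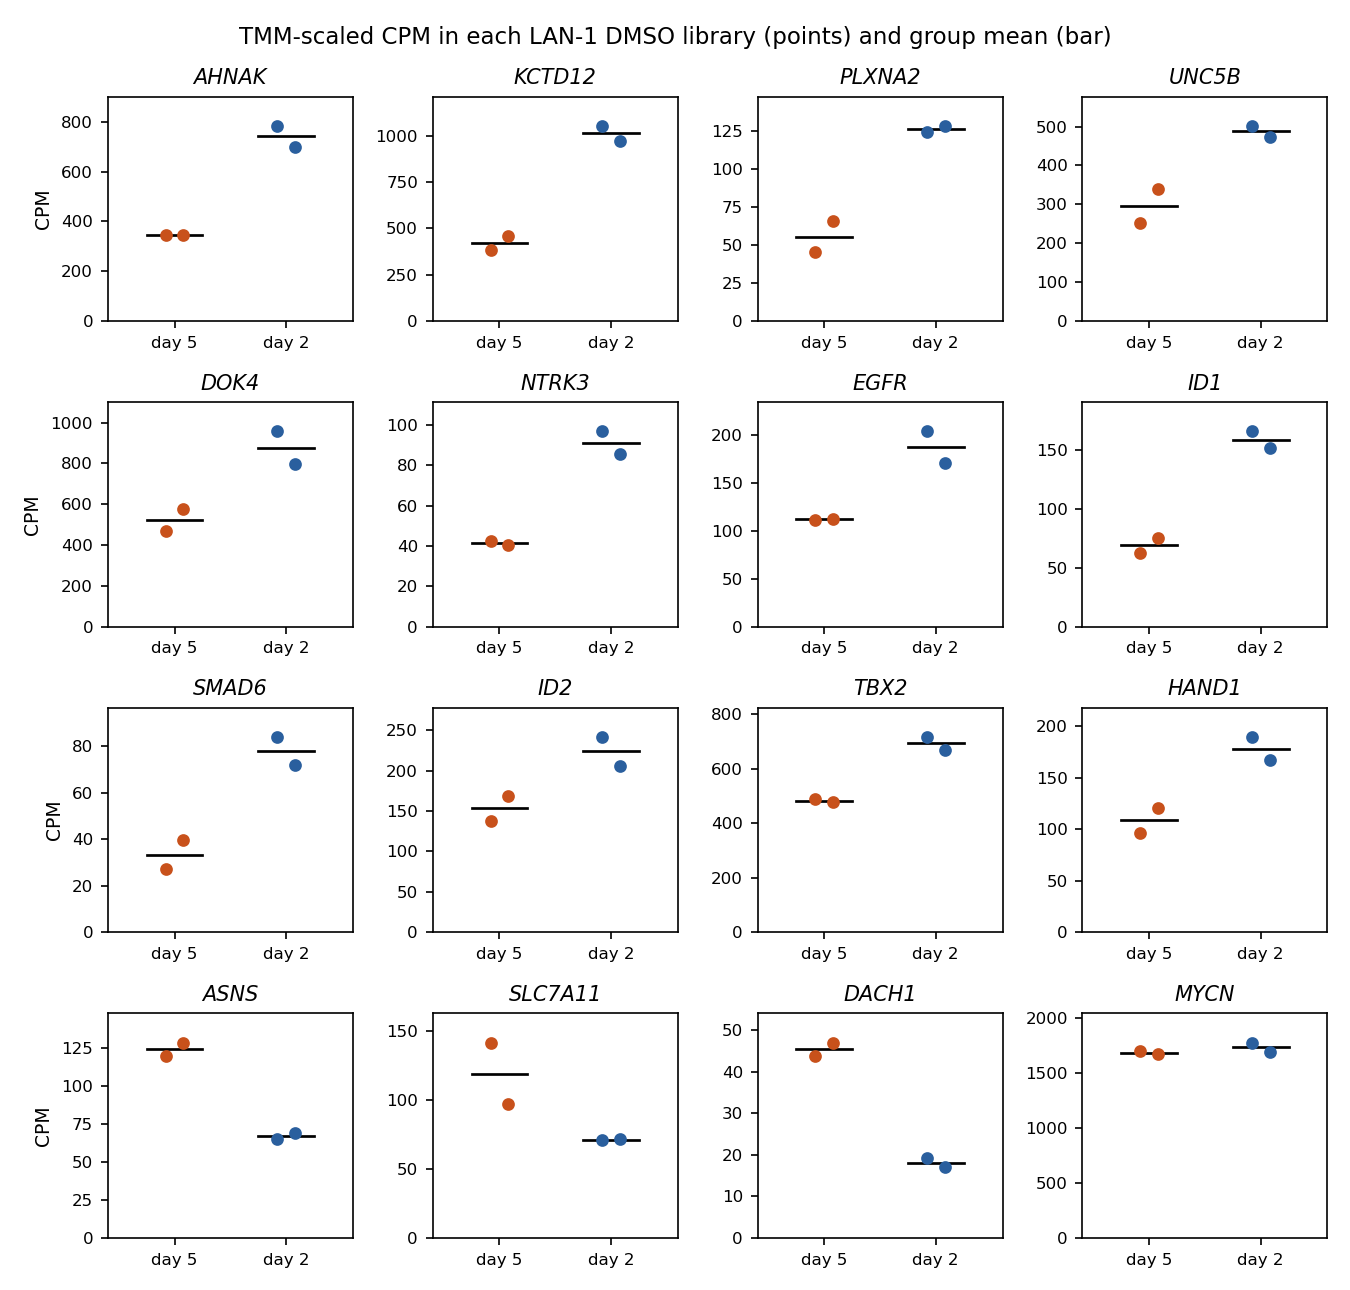
CPM (vertical axis, from 0) of 16 genes in each LAN-1 DMSO library, with day 5 (orange) left of day 2 (blue); each point is 1 library and each bar the mean of 2. The panels for 12 genes, from AHNAK to HAND1, have both day 5 points below both day 2 points; ASNS, SLC7A11 and DACH1 have them above, and for MYCN the days overlap.

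The BMP pathway was followed through 2 promoters, those of its inhibitory SMAD and of the ID target ID1, shown here because both genes were called lower. Each is 250 bases before and 50 after the RefSeq start, placed on GRCh37 by exact match, SMAD6 at chr15:66994324-66994623 (plus strand) and ID1 at chr20:30192842-30193141 (plus strand), and capitals mark the palindrome GTCTAGAC, to which SMAD proteins bind.
SMAD6: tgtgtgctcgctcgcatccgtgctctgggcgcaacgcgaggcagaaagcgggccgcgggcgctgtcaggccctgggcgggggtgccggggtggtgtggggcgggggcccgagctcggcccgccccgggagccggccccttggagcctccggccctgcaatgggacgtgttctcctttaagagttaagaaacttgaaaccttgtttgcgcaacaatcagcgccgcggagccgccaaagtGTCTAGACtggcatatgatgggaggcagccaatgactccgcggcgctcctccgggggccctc
ID1: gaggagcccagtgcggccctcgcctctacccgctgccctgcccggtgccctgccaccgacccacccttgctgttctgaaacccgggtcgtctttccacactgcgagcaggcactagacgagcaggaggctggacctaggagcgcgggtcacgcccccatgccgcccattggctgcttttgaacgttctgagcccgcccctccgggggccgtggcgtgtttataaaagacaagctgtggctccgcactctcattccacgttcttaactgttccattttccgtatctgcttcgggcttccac
The SMAD6 palindrome begins 12 bases before the start, at position -12. Both strands were searched, and 0.202% of the 35116 promoters in the RefSeq table hold those letters. Of the 28 genes called lower that have a promoter in the table, only SMAD6 holds it. The shorter GC-rich element GGCGCC, a core that SMAD1 and SMAD5 bind, is in a promoter of 14 of those 28 genes. It is in a promoter of 5 of the 11 genes called higher that have one in the table, and in 19.2% of all promoters. A gene was counted if any of its promoters in the table holds the element. Genes can have several promoters, so these counts of genes cannot be set against the share of all promoters. The letters of GGCGCC leave no way for it to overlap the palindrome. Neither element was found in the ID1 window. A match is a description of the letters only.

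ID1 stood at 62.7 and 75.6 CPM at day 5 and 166 and 151 CPM at day 2. The days did not overlap, the level at day 5 was 2.31-fold lower (-1.21 ± 0.14, adjusted p = 3.22e-10), and the call held whichever library was left out (adjusted p up to 0.000399). ID2 stood at 137 and 169 CPM at day 5 and 241 and 206 CPM at day 2 (-0.56 ± 0.12, adjusted p = 0.00185). SMAD6 stood at 27.2 and 39.5 CPM at day 5 and 83.9 and 72.0 CPM at day 2, 2.38-fold lower (-1.25 ± 0.19, adjusted p = 3.72e-06). The SMAD6 call was lost without day 5 replicate 1 (adjusted p = 0.0591), and the ID2 call without day 5 replicate 1 (0.513) or day 2 replicate 1 (0.464). Of 14 tested BMP and TGF-beta targets, these 3 fell and 0 rose, where 0.32% of all tested genes fell and 0.118% rose. That list was chosen with earlier results of these data known, so its counts only describe. The list's median log2 fold change was -0.46 against -0.00072 for all genes, and 13 of the 14 estimates were below 0. The CPM of the days did not overlap, with day 5 lower, for 9 of the 14, as for 18.6% of all tested genes. Among those not called, SMAD7, the other inhibitory SMAD, stood at 13.9 and 26.1 CPM at day 5 and 39.1 and 34.0 CPM at day 2 (-0.91 ± 0.26, adjusted p = 0.0949). ID3 had an estimate of -0.37 ± 0.12 (adjusted p = 0.223), ID4 one of -0.38 ± 0.23 (0.798) and BAMBI, a decoy receptor, one of -0.64 ± 0.25 (0.427).

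The families around that pathway were completed after values had been seen, so their counts only describe. Of 8 SMAD genes, SMAD6 was the only 1 called, where 0.32% of all tested genes were called lower. Estimates were below 0 for 7 of the 8 and above 0 for 1, and 2 had an unadjusted edgeR p under 0.05, both lower. Of 4 tested BMP ligands and 10 tested BMP receptors and co-receptors, 0 were called by edgeR, 0 had an unadjusted p under 0.05, and the smallest adjusted p was 0.744 and 0.773.

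Several transcription factor genes were among those called lower. HAND1, a basic helix-loop-helix factor, stood at 96.8 and 121 CPM at day 5 and 189.5 and 167 CPM at day 2 (-0.72 ± 0.13, adjusted p = 7.71e-05). TBX2, a T-box repressor, stood at 488 and 477 CPM at day 5 and 716 and 669 CPM at day 2 (-0.52 ± 0.09, adjusted p = 6.19e-05), and TBX3, its nearest relative, at 393 and 448 CPM at day 5 and 612 and 585 CPM at day 2 (-0.51 ± 0.09, adjusted p = 7.33e-05). For both T-box genes the duplicates of a day lay closer together than the days. TBX20 (73.1 and 66.4 CPM at day 5, 116 and 107 CPM at day 2; -0.68 ± 0.15, adjusted p = 0.00592) and the zinc finger factor GATA2 (399.7 and 436 CPM at day 5, 619.8 and 510.0 CPM at day 2; -0.44 ± 0.09, adjusted p = 0.00397) were lower too. CUX2, a cut homeobox factor, fell by 0.48 on the log2 scale (adjusted p = 0.0195). Of these genes, TBX2 kept its call whichever library was left out (adjusted p up to 0.031). TBX3 lost it without day 5 replicate 1 (0.14), HAND1 without day 5 replicate 1 (0.223) or day 2 replicate 1 (0.0508), and GATA2 without the same libraries (0.397 and 0.746). TBX20 was called only without day 2 replicate 2 (0.0333) and CUX2 only without day 5 replicate 2 (0.0498).

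In the adrenergic identity list, 3 of 31 tested genes fell (HAND1, GATA2 and TBX2) and 0 rose, where 0.32% of all tested genes fell. The list was chosen with earlier results of these data known, so this count only describes. In that list 14 estimates were above 0 and 16 below, with a median of -0.02. Among the members not called, GATA3 stood at 478 and 472 CPM at day 5 and 595 and 554 CPM at day 2 (-0.27 ± 0.09, adjusted p = 0.229) and PHOX2A at 114 and 124 CPM at day 5 and 168 and 141 CPM at day 2 (-0.39 ± 0.13, adjusted p = 0.253). In families listed after values had been seen, 3 of 5 tested T-box genes and 2 of 6 tested HAND and GATA genes fell, against 0.32% of all tested genes; being chosen around called genes, these counts only describe. The mesenchymal identity list, the counterpart state in neuroblastoma lines, had 0 of 21 tested genes called by edgeR and a median of -0.20. Over all tested genes 872 of 11863 had an unadjusted p under 0.05, and in this list 6 of 21 did, 5 of them lower. Its smallest adjusted p-values belonged to VIM, which encodes vimentin (317 and 366 CPM at day 5, 450.1 and 421 CPM at day 2; -0.36 ± 0.09, adjusted p = 0.0607), and SPARC, a matrix glycoprotein (87.7 and 103 CPM at day 5, 139 and 129 CPM at day 2; -0.50 ± 0.13, adjusted p = 0.0616).

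Several receptor genes were also called lower. PLXNA2, a semaphorin receptor, stood at 45.3 and 65.5 CPM at day 5 and 124 and 128 CPM at day 2, 2.31-fold lower (-1.21 ± 0.16, adjusted p = 1.05e-08). PLXNA4 stood at 7.66 and 12.6 CPM at day 5 and 39.1 and 21.7 CPM at day 2 (-1.62 ± 0.31, adjusted p = 0.000516), with day 2 libraries that differed widely. UNC5B, a netrin receptor, stood at 252 and 339.5 CPM at day 5 and 502 and 473 CPM at day 2 (-0.73 ± 0.10, adjusted p = 1.31e-07). Families of guidance genes were listed after values had been seen, and their counts only describe, beside the 0.32% of all tested genes called lower and the 0.118% called higher. Of 11 plexins and neuropilins, 2 fell, 0 rose and 10 estimates were below 0. Of 17 tested genes in the list of netrin and Slit receptors and ligands, 1 fell (UNC5B) and 1 rose (FLRT3). FLRT3, an adhesion protein that binds UNC5B, was listed with them but is not a netrin or Slit receptor or ligand. The list had 9 estimates above 0, 7 below and a median of 0.10. Of 18 tested semaphorins, 0 were called by edgeR and 4 had an unadjusted p under 0.05, with 8 estimates above 0, 8 below and a median of 0.

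NTRK3, the receptor for neurotrophin-3, stood at 42.5 and 40.3 CPM at day 5 and 96.7 and 85.6 CPM at day 2 and was 2.20-fold lower (-1.14 ± 0.18, adjusted p = 1.17e-05). EGFR, the epidermal growth factor receptor, stood at 111 and 113 CPM at day 5 and 204 and 171 CPM at day 2 (-0.74 ± 0.12, adjusted p = 2.11e-05). GFRA2, the neurturin co-receptor of RET, stood at 466 and 523 CPM at day 5 and 655 and 613 CPM at day 2 (-0.36 ± 0.09, adjusted p = 0.0309). NTRK3 and GFRA2 were the 2 called of 8 tested neurotrophin and GDNF family receptors, where 0.32% of all tested genes were called lower. That family too was listed after values had been seen, so its count only describes. It had 4 estimates above 0, 4 below and a median of -0.05. The calls of PLXNA2, UNC5B, NTRK3 and EGFR held whichever library was left out, with adjusted p up to 0.012, 0.0367, 0.0129 and 0.0485 in that order. PLXNA4 was lost without day 5 replicate 1 (0.337) or day 2 replicate 1 (0.598), and GFRA2 in each of the 4 fits (up to 0.718). On GRCh37, PLXNA2 lies at chr1:208195587-208417729 (minus strand), UNC5B at chr10:72972327-73062621 (plus strand) and NTRK3 at chr15:88402982-88800022 (minus strand).

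Other genes called lower encode proteins of varied location. The lists of collagens and matrix (30 tested, median -0.15, 11 with an unadjusted p under 0.05, 9 of them lower) and of integrins and cadherins (20 tested, median 0, 1 with an unadjusted p under 0.05) had 0 genes called by edgeR. Over all 11863 tested genes, 872 had an unadjusted p under 0.05. NEDD9, a docking protein of focal adhesions, stood at 20.2 and 25.2 CPM at day 5 and 44.8 and 47.5 CPM at day 2 (-1.03 ± 0.23, adjusted p = 0.00692). TNS1, which links integrins to actin, fell by 0.57 on the log2 scale (adjusted p = 0.00777), CDC42EP3, an effector of the GTPase CDC42, by 0.49 (0.000443), FLNC, an actin cross-linker, by 0.65 (0.0363), and SH3PXD2A, a podosome scaffold, by 0.58 (0.0222). Of secreted proteins, SFRP1, a Wnt antagonist, stood at 335 and 417 CPM at day 5 and 508 and 543 CPM at day 2 (-0.49 ± 0.09, adjusted p = 0.000443). IGFBP4, an insulin-like growth factor binding protein, fell by 0.76 (adjusted p = 0.0445) and MFAP4, a microfibril-associated protein, by 0.96 (0.0465). NAV2, a neuron navigator, stood at 71.7 and 58.8 CPM at day 5 and 106 and 122 CPM at day 2 (-0.79 ± 0.15, adjusted p = 0.000482). None of these 9 genes kept its call in every fit that left out 1 library. The highest adjusted p was 0.0709 for CDC42EP3 and 0.108 for NAV2, and between 0.316 and 0.723 for the others, reached without day 5 replicate 1 for NEDD9, TNS1, SFRP1, IGFBP4 and MFAP4, without day 5 replicate 2 for NAV2, FLNC and SH3PXD2A and without day 2 replicate 2 for CDC42EP3.

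The remaining falls were SLC4A8, a sodium-driven bicarbonate exchanger (-0.51 ± 0.09, adjusted p = 0.000182), CTSV, a lysosomal protease (-0.58), the kinesin KIF26B (-0.69), PIK3R1, the regulatory subunit of PI3-kinase (-0.65), the splicing factor SRRM2 (-0.36), HEATR5A (-0.45), ISLR (-0.78) and FAM167A (-0.67). SRRM2 stood at 1332 and 1130 CPM at day 5 and 1660 and 1498 CPM at day 2. None of these 8 was called in all 4 fits with a library left out; their highest adjusted p was between 0.126 for SLC4A8 and 0.743 for PIK3R1.

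ASNS, a gene of the amino acid response, had the smallest p among the rises. The promoter of ASNS, asparagine synthetase, is shown because its ATF4 site is a textbook case; it is 300 bases at chr7:97501671-97501970 on the minus strand of GRCh37, from the more upstream of 2 RefSeq starts, and capitals mark the match to TGATGNAA, the element bound by CEBP and ATF dimers.
ASNS: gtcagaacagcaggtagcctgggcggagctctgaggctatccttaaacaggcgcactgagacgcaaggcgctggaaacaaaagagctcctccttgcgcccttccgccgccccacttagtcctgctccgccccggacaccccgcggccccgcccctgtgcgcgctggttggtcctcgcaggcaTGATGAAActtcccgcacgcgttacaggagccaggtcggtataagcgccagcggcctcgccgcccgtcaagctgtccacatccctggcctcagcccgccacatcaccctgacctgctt
The match begins 68 bases before the start, at position -68. The element, searched on both strands, is in 3.62% of all promoters. It is in a promoter of 2 of 11 genes called higher (ASNS and ANK2) and of 1 of 28 called lower (PIK3R1). Here too a gene was counted if any of its promoters matched, so these counts cannot be set against that share.

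ASNS stood at 119.8 and 129 CPM at day 5 and 65.3 and 69.3 CPM at day 2, 1.84-fold higher (log2 0.88 ± 0.15, adjusted p = 2.1e-05). Its duplicates lay close together on both days, and the call held whichever library was left out (adjusted p up to 0.00999). SLC7A11, the cystine transporter and also an ATF4 target, stood at 141 and 96.6 CPM at day 5 and 71.1 and 71.3 CPM at day 2 (0.76 ± 0.15, adjusted p = 0.00113). Here day 5 replicate 1 was far above replicate 2, and the call was lost without it (0.743) and without day 2 replicate 1 (0.061). SLC6A15, a transporter of neutral amino acids that is not in the list, stood at 224 and 235 CPM at day 5 and 153 and 167 CPM at day 2 (0.52 ± 0.11, adjusted p = 0.0047). It was called only without day 2 replicate 2 (0.0333), with adjusted p up to 0.368 otherwise.

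Of 30 tested genes of the amino acid stress response, 2 rose and 0 fell. The shares of all tested genes called, 0.118% higher and 0.32% lower, stand beside this count and those of the lists that follow. These lists were chosen with earlier results of these data known, so their counts only describe. Estimates were above 0 for 24 of the 30, and the median was 0.20 against -0.00072 for all genes. The CPM of the days did not overlap, with day 5 higher, for 20 of the 30, a pattern found in 18.3% of all tested genes. ATF4 mRNA stood at 397 and 407 CPM at day 5 and 309 and 322 CPM at day 2 (0.35 ± 0.09, adjusted p = 0.0616). GARS, glycyl-tRNA synthetase, stood at 421 and 429 CPM at day 5 and 326 and 365 CPM at day 2 (0.30 ± 0.09, adjusted p = 0.178). VLDLR, a lipoprotein receptor, had an estimate of 0.89 ± 0.29 (adjusted p = 0.229). The 17 tested genes of the unfolded protein response had 0 calls, 0 unadjusted p-values under 0.05 and a median of 0.02. TXNRD1, a thioredoxin reductase, was the only one of 15 NRF2 targets called (722 and 665 CPM at day 5, 526 and 569 CPM at day 2; 0.34 ± 0.09, adjusted p = 0.0465), and the call was lost in each fit with a library left out (up to 0.736).

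The largest rise among the called genes was in DACH1, a nuclear co-repressor, at 43.9 and 47.1 CPM at day 5 and 19.2 and 17.0 CPM at day 2, 2.49-fold higher (1.32 ± 0.24, adjusted p = 0.000241, and up to 0.0333 with a library left out). TOX3, an HMG-box factor, stood at 32.0 and 47.1 CPM at day 5 and 23.1 and 15.6 CPM at day 2 (1.00 ± 0.25, adjusted p = 0.0284). FLRT3, an adhesion protein that binds UNC5B and latrophilins, stood at 120.5 and 112 CPM at day 5 and 78.8 and 65.2 CPM at day 2 (0.69 ± 0.15, adjusted p = 0.00358). ANK2, the neuronal ankyrin, stood at 78.7 and 74.0 CPM at day 5 and 44.8 and 50.2 CPM at day 2 (0.69 ± 0.17, adjusted p = 0.0254), and CDON, a Hedgehog co-receptor, at 82.2 and 68.9 CPM at day 5 and 56.4 and 37.4 CPM at day 2 (0.69 ± 0.18, adjusted p = 0.0412). LIFR, a receptor of leukaemia inhibitory factor (0.46 ± 0.10, adjusted p = 0.00592), IGFBPL1 (0.50), ZNF804A (0.49), KLHL13 (0.44) and LRRC8B, a volume-regulated channel subunit (0.38), completed the 14. Apart from ASNS and DACH1, each gene called higher lost its call without at least 1 library, the highest adjusted p being 0.684 for TOX3 without day 5 replicate 2, 0.273 for FLRT3 without day 5 replicate 1, 0.59 for ANK2 without day 2 replicate 1 and 0.718 for both CDON and LIFR without day 5 replicate 1.

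ANK2 was the only 1 of 47 tested genes of neuronal differentiation called, where 0.118% of all tested genes were called higher. In that list 36 estimates were above 0 and the median was 0.20; TUBB3, the neuronal beta-tubulin, stood at 476 and 503 CPM at day 5 and 407 and 359 CPM at day 2 (0.35 ± 0.10, adjusted p = 0.109). Sterol synthesis and uptake had 0 of 26 called, 23 estimates above 0 and a median of 0.16, and the 8 members with an unadjusted p under 0.05 were all higher at day 5. HMGCS1, which makes the substrate of the rate-limiting step, stood at 809.9 and 949 CPM at day 5 and 708 and 742 CPM at day 2 (0.28 ± 0.08, adjusted p = 0.174). Counts of 0 called were found for G1/S and DNA replication (48 tested, median -0.04, 3 with an unadjusted p under 0.05), mitosis (40, -0.07, 2), MYC targets in ribosome biogenesis (43, 0.0085, 2), cytosolic ribosomal proteins (73, 0.03, 1) and the nuclear-encoded respiratory chain (66, -0.02, 4). Glycolysis and hypoxia also had 0 called (33 tested, median -0.12). In that list 9 members had an unadjusted p under 0.05, 7 of them lower and 2 higher. Over all 11863 tested genes, 872 had such a p. MKI67, a marker of cycling cells, stood at 819 and 726 CPM at day 5 and 909 and 937 CPM at day 2 (-0.25 ± 0.09, adjusted p = 0.253). In bulk RNA, fewer cells expressing a gene and less RNA per cell cannot be told apart.

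**Figure D3:**
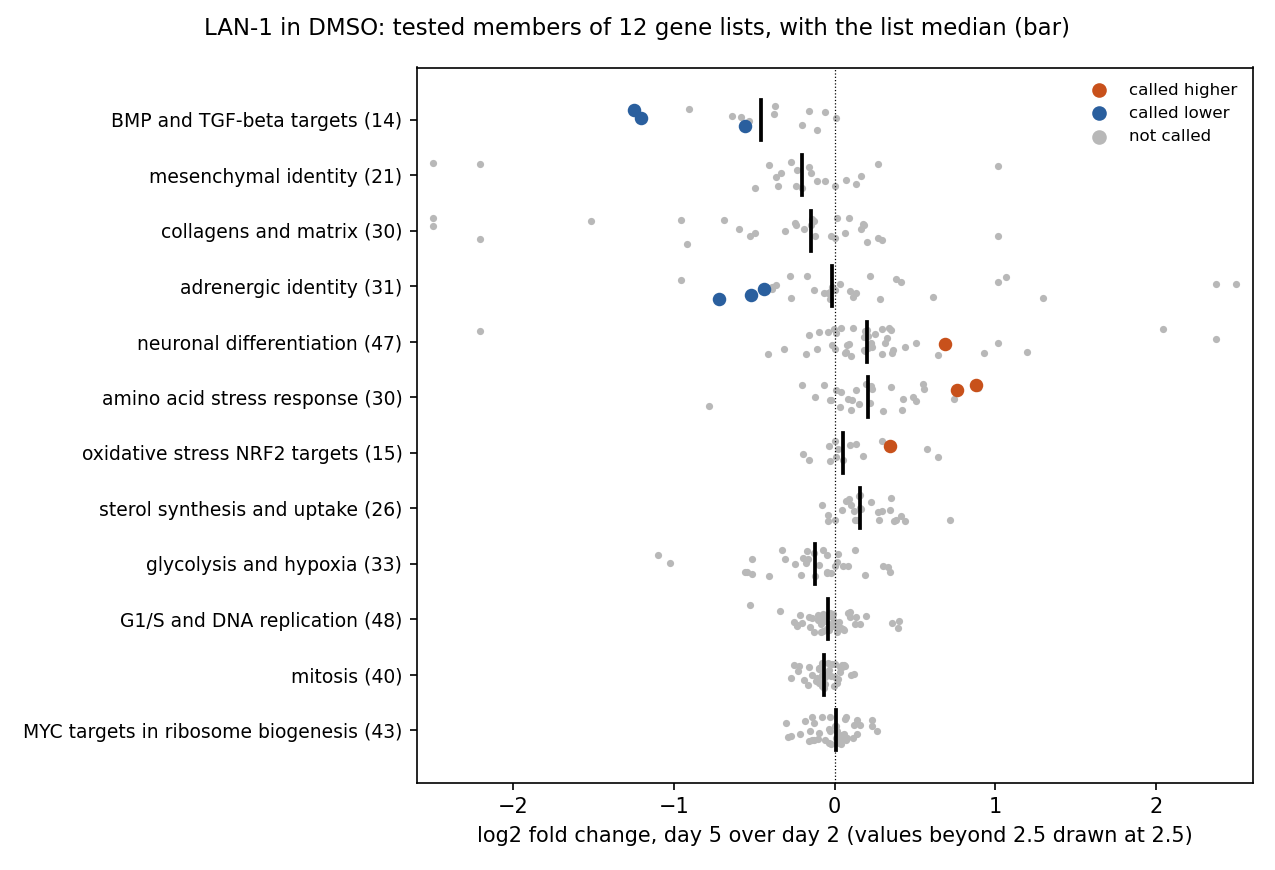
Log2 fold change (day 5 over day 2, horizontal axis) of the tested members of 12 gene lists in LAN-1 with DMSO, with 1 point per gene, the number tested in brackets and a black bar at the list's median. Orange and blue points were called higher and lower. The medians run from -0.46 for BMP and TGF-beta targets to 0.20 for the amino acid stress response, and most lists hold no called gene.

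The same step in time could be compared with Kelly cells in DMSO, whose 4 libraries are not shared with LAN-1. In Kelly, 52 genes were also called (0.438%), 28 higher (0.236%) and 24 lower (0.202%). Of the 52 genes called in LAN-1, 13 were called in Kelly (25% of each list), all lower in both lines: PLXNA2, PLXNA4, UNC5B, EGFR, AHNAK, KCTD12, DOK4, SMAD6, HAND1, GATA2, TBX2, TBX3 and CUX2. EGFR stood at 56.8 and 71.1 CPM at day 5 and 119.5 and 122 CPM at day 2 in Kelly (-0.90 ± 0.15, adjusted p = 2.01e-05), and SMAD6 at 24.7 and 23.1 CPM at day 5 and 41.3 and 51.9 CPM at day 2 (-0.99 ± 0.23, adjusted p = 0.0105). For both genes the days did not overlap in Kelly either. Of the 38 genes lower in LAN-1, 32 had an estimate below 0 in Kelly, with a median of -0.34. Of the 14 higher in LAN-1, 9 had an estimate above 0 in Kelly, with a median of 0.07, and 0 were called there. Leaving out 1 Kelly library left 2 to 12 of the 13 shared calls, the lowest without day 5 replicate 1, and leaving out 1 LAN-1 library left 7 to 13.

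The difference between the lines in the change with time was called for 3 genes (0.0253%), with a more positive change in LAN-1 for 2 (0.0169%) and a more negative one for 1 (0.00843%). NEDD9, lower at day 5 in LAN-1, stood at 43.4 and 40.1 CPM at day 5 and 28.8 and 29.1 CPM at day 2 in Kelly, and the LAN-1 change minus the Kelly change was -1.56 ± 0.32 (adjusted p = 0.022). The same difference was 0.67 ± 0.14 for HMGCS1 (adjusted p = 0.022). For ID1 the difference was -1.03 ± 0.31 (adjusted p = 0.352), with Kelly at 17.9 and 20.7 CPM at day 5 and 18.0 and 24.7 CPM at day 2, and for ASNS it was 0.62 ± 0.20 (adjusted p = 0.446), so these were not called. In edgeR 701 differences had an unadjusted p under 0.05. DESeq2 called 0 such differences, and leaving out 1 library gave between 0 and 12.

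LAN-1 cells with GSK126 formed the other comparison, from 4 libraries that the DMSO comparison does not use. In them 145 genes were called between day 5 and day 2 (1.22%), 104 higher (0.877%) and 41 lower (0.346%), and 12 of the 52 DMSO calls were among these (23.1% of the DMSO list and 8.28% of the GSK126 list). KCTD12, DOK4, DSE, SMAD6, TBX3 and HEATR5A were lower at day 5 in both sets, and TOX3, ANK2 and IGFBPL1 were higher in both. AHNAK, KIF26B and SRRM2 went the opposite way. AHNAK stood at 949 and 831 CPM at day 5 and 675 and 727 CPM at day 2 with GSK126 (0.35 ± 0.09, adjusted p = 0.0165), and the GSK126 change minus the DMSO change was 1.46 ± 0.13 (adjusted p = 4.99e-17). For KIF26B that difference was 1.35 ± 0.22 (adjusted p = 3.23e-05) and for SRRM2 0.69 ± 0.12 (adjusted p = 3.43e-05).

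The difference between treatments in the change with time was called for 64 genes (0.539%), more positive with GSK126 for 51 (0.43%) and more negative for 13 (0.11%). Of the 64, 12 were among the 52, all 12 with a more positive change under GSK126. All 12 had been called lower with DMSO, and the difference subtracts the same DMSO values, so that choice favours a positive sign and the shared direction is no result. Besides AHNAK, KIF26B and SRRM2, these included the guidance receptors PLXNA2 (1.20 ± 0.21), PLXNA4 (2.21 ± 0.38) and UNC5B (0.77 ± 0.14), then EGFR (0.83 ± 0.17), NAV2 (0.91 ± 0.21), NEDD9 (1.18 ± 0.31), MFAP4 (1.47 ± 0.34) and SFRP1 (0.53 ± 0.13). PLXNA2 stood at 139 and 154 CPM at day 5 and 137 and 155.5 CPM at day 2 with GSK126, so the groups overlapped, and EGFR at 179.8 and 171 CPM at day 5 and 163 and 169 CPM at day 2. For ID1 the difference was 0.74 ± 0.20 (adjusted p = 0.06), for SMAD6 0.33 ± 0.28 (0.758) and for KCTD12 0.42 ± 0.14 (0.189). Of the 38 genes lower with DMSO, 22 had an estimate below 0 with GSK126, and of the 14 higher, 13 had one above 0. The GSK126 day 5 duplicates varied 1.91 times as much as counting alone and differed along GC content (correlation across genes 0.314, genes not being independent replicates). In LAN-1 the same correlation was -0.221 for the DMSO day 2 duplicates, 0.0493 for DMSO day 5 and 0.115 for GSK126 day 2. The part of such differences between duplicates in the called differences was not tested. Leaving out 1 LAN-1 library left 6 to 12 of the 12 differences, the fewest without DMSO day 5 replicate 1.

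**Figure D4:**
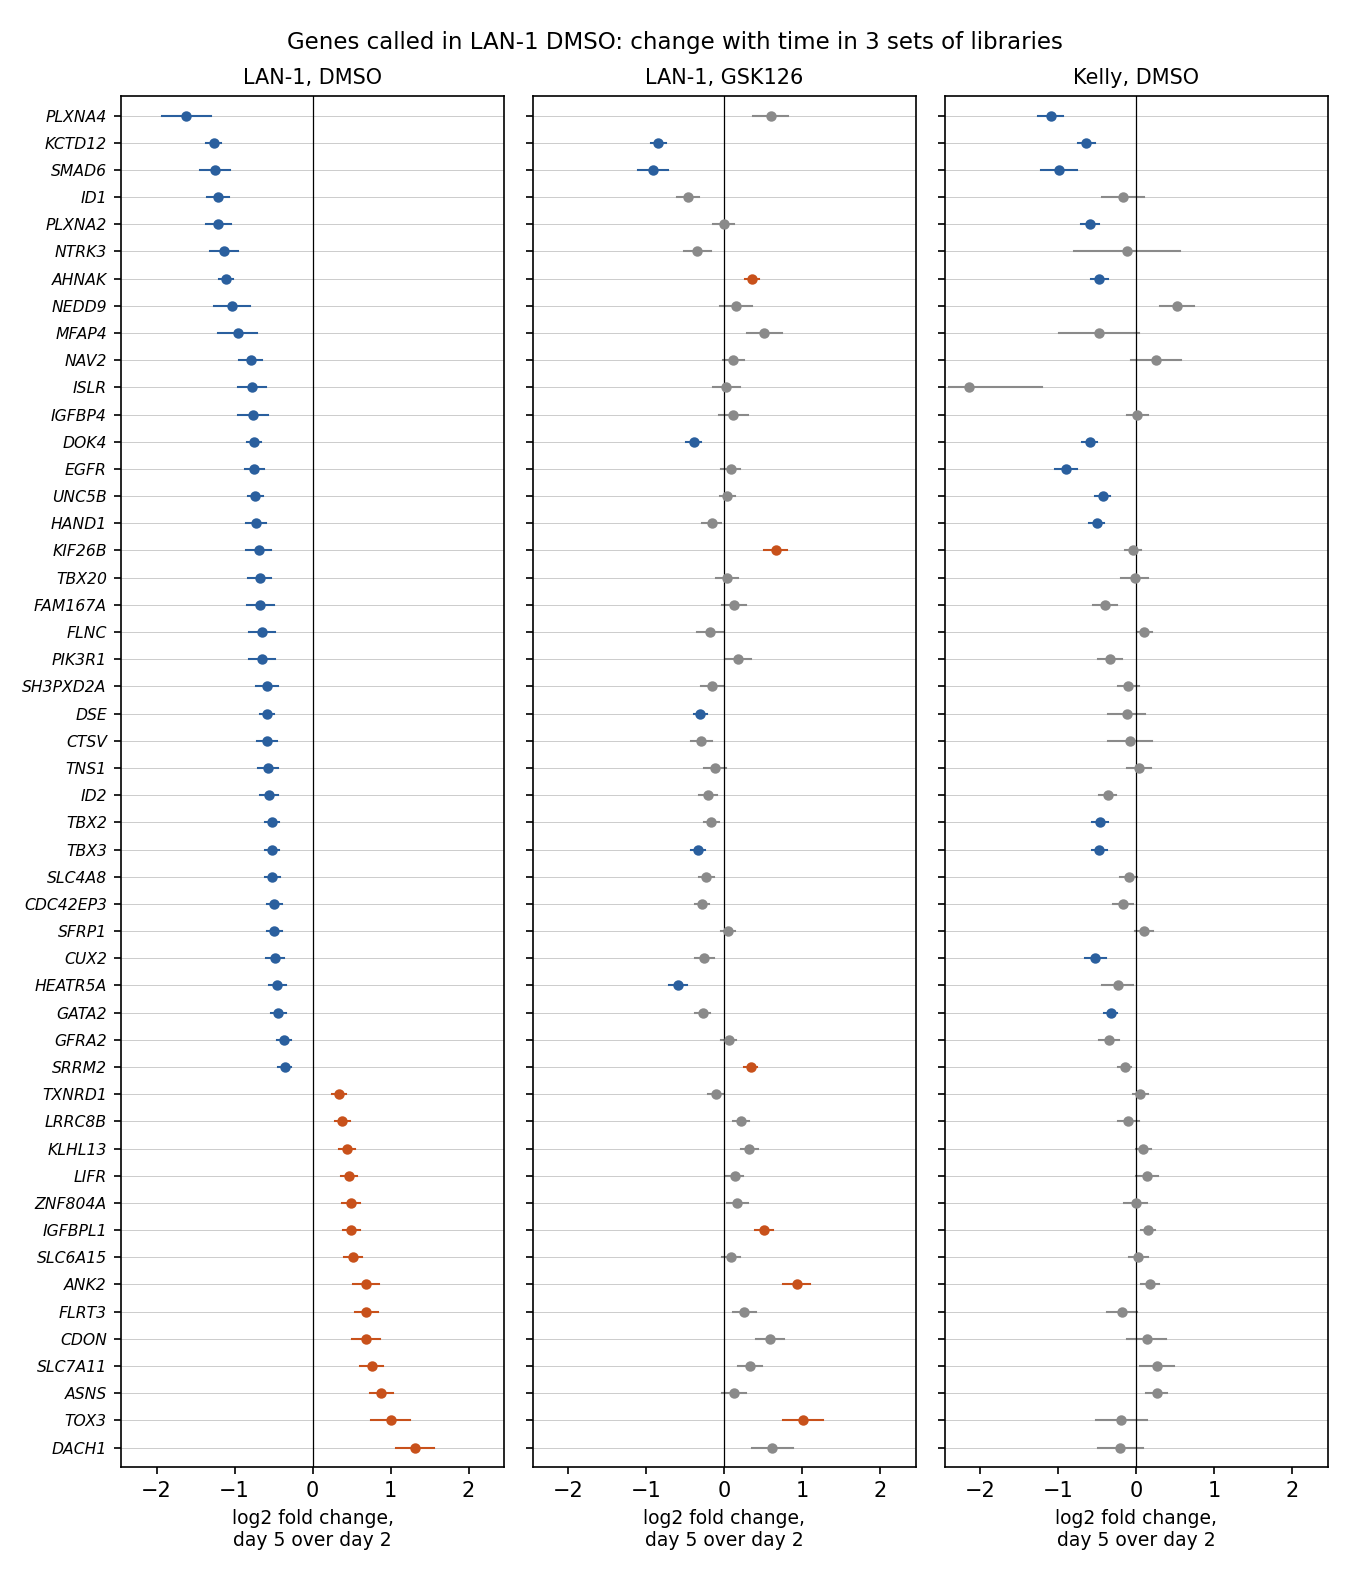
Log2 fold change (day 5 over day 2, horizontal axes) ± SE of 50 of the 52 genes called in LAN-1 with DMSO, in LAN-1 DMSO, LAN-1 GSK126 and Kelly DMSO libraries (left to right), with n = 2 libraries per day in each. Blue and orange points were called lower and higher in that set and grey points were not called. In Kelly, 13 genes are blue and 0 orange, and in LAN-1 with GSK126, 6 of the DMSO falls are blue and 3 are orange.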

How the data were processed

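RNA of 16 cell line samples was sequenced, and the authors deposited a table of whole-read counts for 25728 gene symbols, not normalized. The submitters' processing notes name the tools featureCounts, TopHat2 and FastQC, and the build GRCh37 (hg19); versions, annotation, strand setting and the handling of shared reads are not given in the sources used here, so overlapping and antisense genes cannot be told apart. The samples were mapped to groups by their labels. Counts were fitted with edgeR 4.0.16 in R 4.3.3 on all 16 libraries in 8 groups (robust quasi-likelihood, TMM, filterByExpr at a minimum count of 10, which kept 11863 genes, 8 residual degrees of freedom), with P-values adjusted by Benjamini-Hochberg. CPM are counts per 1e+06 TMM-scaled counts. The script was tested on simulated data. Alternatives were RLE scaling, DESeq2 1.42.0, other filters, a GC offset (GC content known for 98.58% of tested genes), a replicate block, the compared libraries alone and leaving out each library.

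Members and gene lists were chosen with earlier results of these data known, and the complete gene families after their values had been seen. The naming rule took the 15 called genes with the smallest p, the 10 largest called rises and falls at 10 CPM or more, up to 3 genes with the smallest p from each list, MYCN and EZH2; other called genes were then added, and of the list genes those bearing on the results are given. Results for 4 genes are not reported here. Positions came from the GENCODE annotation lifted to GRCh37 (21873 symbols matched directly, 1441 by synonym and 2386 not at all), and promoters from a RefSeq table. Replicate numbers did not pair the samples (correlation of deviations between days 0.00315). Figures were drawn with matplotlib 3.10.9.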

Additional observations from a re-analysis of the deposited data

Results flagged for a closer look

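Changes with time that differed between sets of libraries, each by edgeR's test of the difference itself with n = 2 libraries per group, were looked at again. LAN-1 and Kelly differed in DMSO for NEDD9 (log2 -1.56 ± 0.32, LAN-1 change minus Kelly change, adjusted p = 0.022) and HMGCS1 (0.67 ± 0.14, 0.022).

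Within LAN-1 the change under GSK126 minus that under DMSO was positive for AHNAK (1.46, adjusted p = 4.99e-17), KIF26B (1.35, 3.23e-05), SRRM2 (0.69, 3.43e-05), PLXNA2 (1.20, 9.04e-05), PLXNA4 (2.21, 9.04e-05), UNC5B (0.77, 0.000384), EGFR (0.83, 0.00404), NAV2 (0.91, 0.012), MFAP4 (1.47, 0.0125), SFRP1 (0.53, 0.0202) and NEDD9 (1.18, 0.0455), all of which had been called lower in those DMSO libraries, a choice that favours a positive sign. Of genes not called in DMSO alone, only those picked for naming were looked at here. What follows is therefore only a part of the 64 differences called over all tested genes. The difference was called for MKI67 (0.68, 0.000155), FN1, fibronectin (0.58, 0.00617), NKD1, a Wnt feedback inhibitor (1.44, 0.0224), and IDI1, an isomerase of sterol synthesis (-0.68, 0.0228). MKI67 stood at 1042 and 1082 CPM at day 5 and 729.5 and 854 CPM at day 2 with GSK126, and at 819 and 726 CPM at day 5 and 909 and 937 CPM at day 2 with DMSO.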

How the results depend on the processing

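Of the 52 LAN-1 DMSO calls, 12 (AHNAK, KCTD12, ID1, DOK4, PLXNA2, UNC5B, DSE, NTRK3, EGFR, TBX2, ASNS and DACH1) held under each alternative run, and 12 were lost whenever 1 library was left out. The count was 22 with DESeq2, 81 with the 4 compared libraries alone, and 21 to 32 with 1 library left out. It was 44 with a replicate block, 8 calls being lost, though whether the replicate numbers pair the samples is not known. Kelly's count of 52 became 15 with DESeq2, 107 with a GC offset, 103 with the replicate block and GC offset, and 8 to 40 with 1 library left out (8 without day 5 replicate 1). The 145 calls of LAN-1 with GSK126 became 64 with DESeq2, 56 with its libraries alone and 16 to 382 with 1 left out. The 3 differences between lines became 0 with DESeq2, 0 with the replicate block, 18 with a GC offset, 11 with the replicate block and GC offset, 7 alone and 0 to 12 with 1 left out. The 64 differences between treatments became 28 with DESeq2 and 22 to 225 with 1 left out. Of 11 called list members, the count became 18 with a GC offset and 4 to 9 with 1 left out. MYCN's estimate changed sign to 0.0107 with a GC offset and to 0.0108 with the replicate block and GC offset. The causes were not tested. At 1220297 to 1597429 counts per library, a level under 1.92 to 2.52 CPM (3 counts) could not be told from 0 at 95% confidence.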
